A study of Homo sapiens with 192 samples.

Results

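HCT116 is a human colorectal cancer (CRC) cell line, and it was compared here with the other CRC lines of the series, HT29, LS513 and LS174T, over both forms of growth. All 24 libraries entered the comparison: the 6 libraries of HCT116 (3 grown in 2D and 3 in 3D) against 18 others (3 in 2D and 3 in 3D for each of the 3 lines). The labels give no treatment for any library. HCT116 was kept in McCoy medium and the others in DMEM, so the line and its medium cannot be told apart in any difference given below. Poly(A)-selected RNA was sequenced with a stranded kit, counts per gene were summed over technical replicates, and levels are given as CPM (a gene's counts scaled to a common library total) on TMM-scaled library sizes. HCT116 totals were between 29705702 and 31925024 counts, and those of all libraries between 18723942 and 34277421, so that 3 counts stand for 0.0875 to 0.160 CPM before scaling. A gene was counted as found only in HCT116 when each of its 6 libraries reached 1 CPM and none of the 18 others had more than 3 counts, and as silent only there when each HCT116 library had at most 3 counts and each of the 18 others reached 1 CPM.

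Colonic epithelium is held in its identity by a set of transcription factors, among them CDX1, CDX2 and HNF4A, which switch on the genes of absorptive cells (brush border proteins) and of goblet cells (mucins and trefoil factors). CRC lines retain this program to different degrees. A line can also express genes that are normally used by other tissues or by germ cells. The comparison describes where HCT116 stands in this respect. As each line is a single line, the p-values below measure the spread between libraries, and the labels do not say whether libraries of a group came from separate cultures. In these bulk samples, fewer cells of a type and less RNA per cell cannot be told apart. An exact test with 1 line against 3 could not give a p below 0.25.

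In total, 193 genes were found only in HCT116, of which 176 are protein coding, and 110 genes were silent only there, of which 99 are protein coding. Both sets were chosen by the levels themselves, so these values are a description and carry no test. The same rule applied to each of the other lines gave 42 genes found only in HT29, 31 in LS513 and 161 in LS174T, and 37 genes silent only in HT29, 68 in LS513 and 36 in LS174T. Of the 161 genes found only in LS174T, 88 are protein coding. HCT116 therefore had the highest count on both sides among the 4 lines, and LS174T came next for genes found only in 1 line. Genes that share exonic bases on the same strand can be counted from the same reads, and with such genes joined into loci HCT116 had 191 loci found only there and 96 silent only there. In 48 of the genes found only in HCT116, all 18 other libraries were at 0 counts, and in 30 of the genes silent there all 6 HCT116 libraries were at 0.

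**Figure D1:**
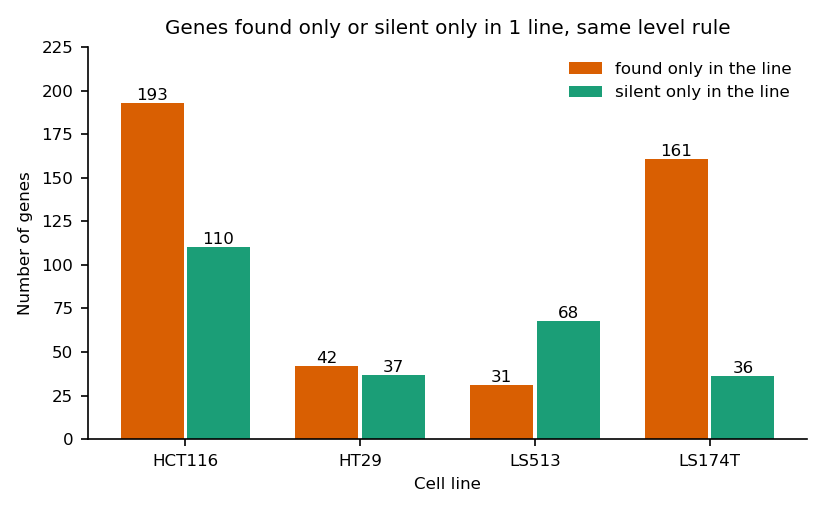
Bars give the number of genes (y axis, from 0) found only or silent only in each cell line (x axis) by the same level rule over all 24 libraries. HCT116 had 193 and 110 genes, against 161 and 36 in LS174T, which had the next count of genes found only in 1 line.

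**Figure D2:**
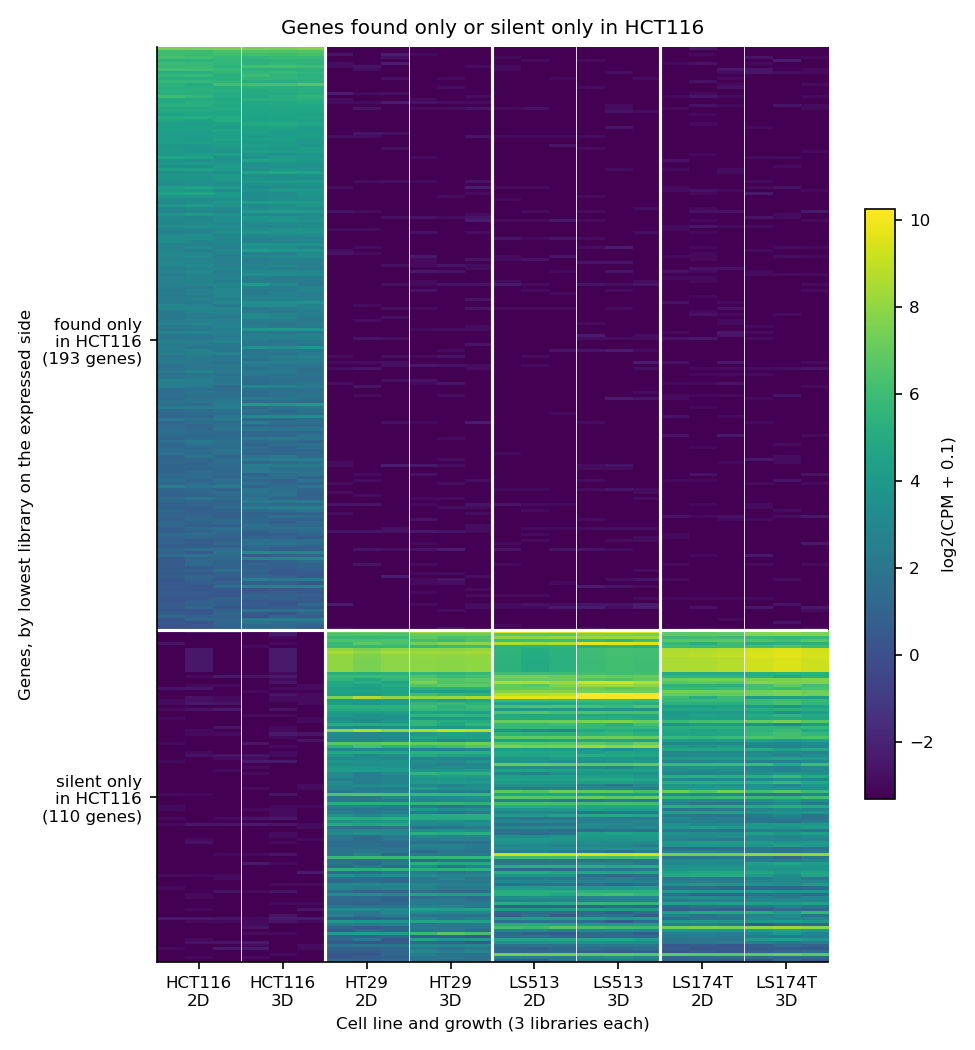
Each row is a gene found only (193) or silent only (110) in HCT116, each column a library, and the colour gives log2(CPM + 0.1). The block of equal rows near the top of the silent genes, dark in HCT116 and bright elsewhere, is the UGT1A locus, whose genes share exons.

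Several members lay next to each other on the chromosomes. With a distance of at most 100 kb, 10 neighbouring pairs were both found only in HCT116 and 20 were both silent only there. After leaving out pairs that share exonic bases on the same strand, 9 and 6 pairs remained, and of these 4 and 5 were transcribed away from each other. The share of such pairs among all genes was not determined, so the counts are a description and not a trait of these sets. In each of these 9 pairs both genes were on or off together, and promoter windows are shown for 6 of them. In these 6 the windows of both genes overlap. The windows are from RefSeq (GRCh38.p14), each from 250 bases before to 50 bases after the start of the first gene named, written 5′ to 3′ on its strand, with CG dinucleotides (CpG, the sites of DNA methylation) in capitals.
COL4A3 with COL4A4, both found only in HCT116, chr2:227164374-227164673, plus strand: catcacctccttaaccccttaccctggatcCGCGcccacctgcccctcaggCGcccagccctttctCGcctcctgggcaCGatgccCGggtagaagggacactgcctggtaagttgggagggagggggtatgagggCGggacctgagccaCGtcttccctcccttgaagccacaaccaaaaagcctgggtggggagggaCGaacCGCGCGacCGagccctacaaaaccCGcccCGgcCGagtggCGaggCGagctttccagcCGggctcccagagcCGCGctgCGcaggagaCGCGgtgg
COL4A5 with COL4A6, both found only in HCT116, chrX:108439588-108439887, plus strand: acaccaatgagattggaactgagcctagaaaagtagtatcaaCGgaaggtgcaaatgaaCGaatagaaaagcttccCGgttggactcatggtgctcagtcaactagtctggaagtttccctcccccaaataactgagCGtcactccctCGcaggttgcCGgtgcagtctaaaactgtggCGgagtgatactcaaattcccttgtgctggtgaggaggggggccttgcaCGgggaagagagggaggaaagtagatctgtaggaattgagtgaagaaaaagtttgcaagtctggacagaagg
NNT with NNT-AS1, both silent only in HCT116, chr5:43602930-43603229, plus strand: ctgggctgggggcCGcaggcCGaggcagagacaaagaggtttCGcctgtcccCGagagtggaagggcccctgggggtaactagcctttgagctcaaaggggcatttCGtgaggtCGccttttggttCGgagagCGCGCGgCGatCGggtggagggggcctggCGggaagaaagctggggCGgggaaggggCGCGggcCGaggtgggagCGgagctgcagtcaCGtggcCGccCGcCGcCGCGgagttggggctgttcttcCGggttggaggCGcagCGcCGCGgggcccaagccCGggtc
CROT with TP53TG1, both silent only in HCT116, chr7:87345414-87345713, plus strand: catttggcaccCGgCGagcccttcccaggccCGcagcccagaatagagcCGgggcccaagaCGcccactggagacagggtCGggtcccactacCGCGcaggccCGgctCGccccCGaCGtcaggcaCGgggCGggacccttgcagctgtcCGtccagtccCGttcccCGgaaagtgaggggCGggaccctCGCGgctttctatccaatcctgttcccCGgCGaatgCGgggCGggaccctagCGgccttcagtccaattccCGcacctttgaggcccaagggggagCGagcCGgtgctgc
LINC00667 with LINC00526, both silent only in HCT116, chr18:5237850-5238149, plus strand: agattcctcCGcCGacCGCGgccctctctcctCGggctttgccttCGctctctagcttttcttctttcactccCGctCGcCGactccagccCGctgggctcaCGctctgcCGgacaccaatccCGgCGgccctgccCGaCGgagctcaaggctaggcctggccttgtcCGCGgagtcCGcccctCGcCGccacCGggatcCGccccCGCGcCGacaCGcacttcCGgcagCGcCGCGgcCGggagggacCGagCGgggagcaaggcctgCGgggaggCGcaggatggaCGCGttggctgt
ZNF10 with ZNF891, both silent only in HCT116, chr12:133130377-133130676, plus strand: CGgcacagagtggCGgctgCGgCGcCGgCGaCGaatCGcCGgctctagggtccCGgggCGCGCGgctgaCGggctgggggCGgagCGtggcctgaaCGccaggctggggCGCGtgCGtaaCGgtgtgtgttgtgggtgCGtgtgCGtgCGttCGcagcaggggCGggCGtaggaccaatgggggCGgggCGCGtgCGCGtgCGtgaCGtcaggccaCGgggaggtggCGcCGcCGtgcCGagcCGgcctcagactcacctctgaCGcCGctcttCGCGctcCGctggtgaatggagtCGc
These windows held 24, 8, 30, 28, 38 and 46 CpG in the order shown, against a median of 14 over the 35116 promoter windows of the table, of which 96% hold a CpG. The COL4A5 window was below this median and the other 5 were above it. Of all windows, 33.9%, 60.7%, 22.4%, 26.2%, 9.91% and 2.89% had at least as many CpG as the 6 shown. In the CROT and LINC00667 windows the start of the partner gene lies inside the window. It is 172 and 71 bases from the start of the first gene. These distances use RefSeq starts, which can differ from the annotation starts used below, as for COL4A3 and COL4A4 (419 against 112 bases). The CpG counts describe the sequence, and DNA methylation was not measured. A promoter window was at hand for 129 of the 176 protein-coding genes found only in HCT116 (73.3%) and for 73 of the 99 silent only there (73.7%), which is too few for a comparison of base composition over the sets, and none was made.

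The members of the neighbouring pairs had these levels. COL4A4 and COL4A3, which encode chains of the basement membrane collagen type IV, were at 5.45 to 9.23 CPM and 2.02 to 3.89 CPM in HCT116, and their start sites in the annotation lie 112 bases apart. COL4A6 and COL4A5 on the X chromosome, a further head-to-head pair of collagen type IV genes, were at 1.80 to 5.02 CPM and 10.7 to 27.4 CPM in HCT116. None of the 18 other libraries exceeded 0.0905 CPM for any of these 4 collagen genes. The rule that chose them allowed at most 3 counts there. CCNYL2 and LINC00839, 194 bases apart, were at 3.11 to 6.53 CPM and 10.4 to 16.4 CPM in HCT116 and at 0 in all other libraries. CFAP74 and GABRD, whose starts are 15461 bases apart, completed the divergent pairs found only in HCT116.

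NNT encodes the mitochondrial transhydrogenase that makes NADPH, and NNT-AS1 is a noncoding transcript that starts next to it on the other strand. Both were off in HCT116, where NNT had no count in any library and NNT-AS1 reached at most 0.0334 CPM, while the other libraries held 46.2 to 108.9 CPM of NNT and 4.94 to 15.04 CPM of NNT-AS1. CROT, which transfers medium-chain acyl groups from coenzyme A to carnitine in peroxisomes, and the noncoding gene TP53TG1 were at 3.53 to 21.6 CPM and 2.58 to 21.6 CPM in the other lines. In HCT116, TP53TG1 was at 0 and CROT at most at 0.0327 CPM. LINC00667 and LINC00526 had no count in HCT116 and lay at 11.9 to 96.9 CPM and 2.56 to 11.2 CPM elsewhere. The zinc finger genes ZNF891 and ZNF10, 102 bases apart, also had no count in HCT116, against 2.53 to 7.40 CPM and 1.27 to 5.62 CPM in the other libraries. NNT and NNT-AS1 share 217 exonic bases on opposite strands and LINC00667 and LINC00526 share 773, and whether reads were counted by strand is not given in the sources used here, so levels of the smaller partner in such a pair are uncertain. The remaining divergent pair was TSPAN8 and LGR5.

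Among the protein-coding genes found only in HCT116, MAGEB2 (ENSG00000099399, chrX:30215560-30220089, GRCh38), a cancer testis gene of the MAGE family, had the highest level in its lowest HCT116 library. MAGEB2 was at 174, 178 and 206 CPM in HCT116 (lowest, median and highest library) and had 3 counts in 1 of the 18 other libraries and none in the other 17. BEX3 (ENSG00000166681, chrX:103376340-103378077), a small adaptor protein of neurotrophin receptor signaling, was at 61.7, 82.6 and 89.5 CPM in HCT116 and at 0 in all others. The mean of BEX3 in HCT116 was at least 473-fold higher than 3 counts in the shallowest other library. CHST15 (ENSG00000182022), a sulfotransferase acting on chondroitin sulfate, was the other gene of these 12 with no count outside HCT116, and its HCT116 level of 37.5, 47.0 and 62.3 CPM was at least 289.5-fold higher than that floor. A gap between HCT116 and every other library was required by the rule that chose these 3 genes.

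The other 9 genes of this ranking covered several functions. OSMR, the receptor subunit for oncostatin M, was at 42.3, 60.9 and 70.8 CPM in HCT116 and at most at 0.0688 CPM elsewhere. RBP7, a carrier of retinol, was at 56.0, 66.8 and 74.6 CPM in HCT116, with at most 2 counts in any other library. AMOTL1, a tight junction protein of the angiomotin family that binds YAP, was at 48.9, 55.1 and 76.4 CPM, and GJC1, a connexin of gap junctions, was at 40.9, 48.8 and 73.1 CPM. PRAME, another cancer testis gene, was at 37.6, 47.8 and 51.5 CPM in HCT116 and at most at 0.0613 CPM elsewhere. RFLNB, a filamin-binding protein, SCARA3, a scavenger receptor, DIRAS1, a small GTPase of the Ras family, and HS6ST2, which adds sulfate to heparan sulfate, had median levels of 43.8, 50.3, 42.7 and 44.1 CPM. By the rule that chose them, none of the 12 genes had more than 3 counts in any library of HT29, LS513 or LS174T. Among noncoding genes, MIR100HG, the host transcript of a miRNA cluster, ranked first at 17.7 to 20.8 CPM and LINC00839 second. Further down, TWIST1, a transcription factor of mesenchymal cells, was at 2.35, 3.07 and 3.42 CPM in HCT116 and at 0 in all other libraries, at least 17.9-fold higher than the floor. Of the 193 genes, 46 reached 10 CPM in every HCT116 library and 55 had a lowest library under 2 CPM. Just inside the threshold were AC100803.2 and CSF2RA, with 1.01 and 1.03 CPM in their lowest HCT116 library, and just outside were GPM6A and ADAMTS10, both at 0.997 CPM.

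Among the genes silent only in HCT116, TSPAN8 (ENSG00000127324, chr12:71125085-71441898), a tetraspanin of the intestinal cell surface, ranked first. TSPAN8 was at 129, 203 and 336 CPM in HT29, at 658, 749 and 794 CPM in LS513 and at 97.6, 148 and 253 CPM in LS174T, and had at most 3 counts in each HCT116 library. TMEM45B, a transmembrane protein, was at 80.5 to 216.5 CPM over the 18 other libraries, with 3 counts in 1 HCT116 library and none in the other 5. CEACAM5 (ENSG00000105388, chr19:41708585-41729798), which encodes the carcinoembryonic antigen CEA used as a serum marker in CRC, was at 55.2, 132 and 228 CPM in HT29, at 343, 599 and 926 CPM in LS513 and at 37.1, 42.9 and 62.1 CPM in LS174T. In HCT116, CEACAM5 had at most 2 counts per library. The lines other than HCT116 differed among themselves in TSPAN8 and CEACAM5, with LS513 above HT29 and LS174T in every library. That all 18 libraries lay above HCT116 follows from the rule that chose these genes.

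Enzymes of metabolism and detoxification made up the rest of this ranking. ACSS1, which makes acetyl-CoA from acetate in mitochondria, was at 52.0 to 297.1 CPM outside HCT116 and had 1 count over all HCT116 libraries. NNT (ENSG00000112992, chr5:43602692-43707405) had no count in HCT116, and its mean in the other lines was at least 785-fold higher than 3 counts in the shallowest HCT116 library. CBR1, a reductase of carbonyl groups, was at 52.3, 54.2 and 62.6 CPM in HT29, at 35.3, 42.3 and 44.2 CPM in LS513 and at 55.8, 62.1 and 94.5 CPM in LS174T, against 1 count in HCT116. The last 6 protein-coding genes of the ranking, UGT1A8, UGT1A10, UGT1A6, UGT1A4, UGT1A7 and UGT1A5, belong to the UGT1A locus on chromosome 2, which encodes enzymes that add glucuronic acid to bilirubin, steroids and drugs. They use alternative first exons with the same later exons, and 40.6% to 70.7% of their exonic bases are shared with other genes on the same strand. Their nearly equal levels are therefore read as 1 locus: UGT1A8 was at 191, 248 and 262 CPM in HT29, at 34.4, 55.5 and 75.4 CPM in LS513 and at 363, 517 and 727 CPM in LS174T, with at most 3 counts in each HCT116 library. The order LS174T, HT29 and LS513 held in every library for these 6 genes.

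**Figure D3:**
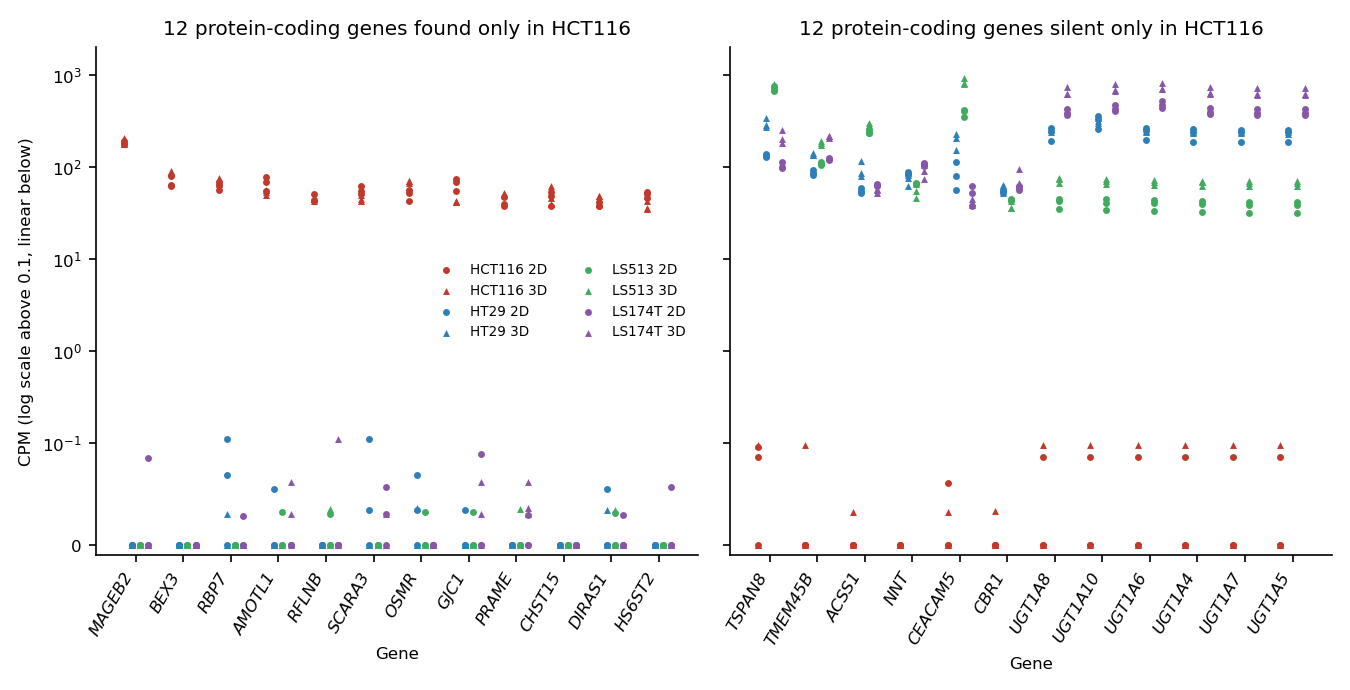
CPM (y axis, log scale above 0.1 and linear below) of the 12 leading protein-coding genes found only (left) or silent only (right) in HCT116, with 1 point per library, coloured by line, circles for 2D and triangles for 3D. On the left all HCT116 points lie at 35.1 CPM or higher and all others at or below 0.110 CPM, and on the right all HCT116 points lie at or below 0.0980 CPM and all others at 31.7 CPM or higher.

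The noncoding genes ranked first among those silent were LINC00667 and NNT-AS1, given above. Of the 110 genes, 31 reached 10 CPM in every library outside HCT116. Also among them, and named here after their values were seen, were CFTR, the chloride channel of secretory epithelia, at 26.7, 128.6 and 206.3 CPM over the 18 other libraries, and TXNIP, the inhibitor of thioredoxin that responds to glucose, at 24.5, 185.9 and 655.3 CPM. HCT116 had 1 count of CFTR and 2 counts of TXNIP over all its libraries. Just inside the threshold were RARRES2 and AL096870.1, with 1.04 and 1.06 CPM in their lowest library outside HCT116 (all exonic bases of AL096870.1 are shared with another gene), and just outside were ZNF433-AS1 and TFF1, at 0.995 and 0.934 CPM. TFF1, a trefoil factor, had no count in HCT116.

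Beyond presence and absence, levels were compared across 19387 genes with edgeR's quasi-likelihood test, with growth as covariate. A gene was called when its Benjamini-Hochberg adjusted p was under 0.05 and its log2 difference between HCT116 and the mean of the 3 other lines was over 1 or under -1. This gave 3902 genes higher in HCT116 (20.1% of genes tested) and 3076 lower (15.9%). Without the size limit 14465 genes (74.6%) had an adjusted p under 0.05. When the same limits had to be passed against each other line as well, 1993 genes were higher in HCT116 (10.3%) and 1404 were lower (7.24%). For the other lines, the same count against each remaining line was 1042 higher and 893 lower in HT29, 946 and 992 in LS513, and 1298 and 922 in LS174T. In 2380 genes (12.3%) every HCT116 library lay above all 18 others and in 1614 genes (8.33%) every HCT116 library lay below them. With the 18 other libraries taken as a single group instead, the split turned to 2606 higher and 3889 lower. With each of the 4 lines taken as 1 value, no gene passed the adjusted threshold (limma), while 1335 genes were higher and 837 lower at an unadjusted p under 0.05 and the same size limit.

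Among genes outside the sets above with at least 10 CPM throughout their higher side, those with the largest positive differences were NLRP2, RUNX3, COL6A2, BEX2, RAB31, SIRPA, WNT16 and VCAN. These 8 genes had a median between 30.8 and 111 CPM in HCT116 and at most 0.688 CPM in any other library, which is near the floor, so that the fitted difference is no measure of its size. NLRP2, an inflammasome sensor, was at 88.6, 111 and 121 CPM in HCT116 and at 0.219 to 0.598 CPM in LS174T. RUNX3, a transcription factor of the Runt family, was at 33.3, 40.8 and 43.6 CPM in HCT116 and at most at 0.145 CPM elsewhere. WNT16, a Wnt ligand, was at 42.6, 61.2 and 81.2 CPM, and BEX2, a relative of BEX3 on the same chromosome, at 21.8, 30.8 and 39.6 CPM. VCAN and COL6A2, both of the extracellular matrix, had medians of 76.5 and 78.4 CPM in HCT116.

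The largest negative differences were those of AGR2, GPX2, ALDH1A1, UGT1A1, LGALS4, VIL1, LIPG and EPS8L3. AGR2, a disulfide isomerase needed for mucin folding, was at 83.3 to 332 CPM in HT29, 718 to 1594 CPM in LS513 and 642 to 2270 CPM in LS174T, against at most 0.131 CPM in HCT116. GPX2, the gastrointestinal glutathione peroxidase, was at 196 CPM or higher in all 18 other libraries and at most at 0.163 CPM in HCT116. ALDH1A1, which oxidizes retinal, was at 131 CPM or higher elsewhere and at most at 0.131 CPM in HCT116. LIPG, a lipase, and EPS8L3, an actin regulator of the EPS8 family, were at most at 0.131 and 0.200 CPM in HCT116. UGT1A1 shares 49.9% of its exonic bases with its neighbours in the UGT1A locus. None of these 8 genes exceeded 0.621 CPM in HCT116, the level of LGALS4 in 1 library.

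The general markers of epithelium were present in HCT116, whereas several of those defining colonic epithelium were nearly absent. EPCAM was at 257, 273 and 299 CPM in HCT116, below the 409 CPM of the lowest other library, and the log2 difference was -1.31 (standard error 0.08, adjusted p = 8.4e-14, edgeR). The keratins KRT8, KRT18 and KRT19 had medians of 2012, 1036 and 1520 CPM in HCT116. CDH1, the E-cadherin of adherens junctions, was at 77.3, 109 and 151 CPM in HCT116, at 401 to 521 CPM in HT29, at 22.1 to 40.9 CPM in LS513 and at 18.01 to 26.8 CPM in LS174T, so HCT116 lay between the other lines. VIL1, the actin bundler villin of the brush border, was at 0.133, 0.215 and 0.294 CPM in HCT116 and at 108 CPM or higher elsewhere. CDH17, the cadherin of intestinal epithelium, had 4 counts over all HCT116 libraries, and LGALS4, the intestinal galectin-4, was at 0.0906, 0.203 and 0.621 CPM, against 342 CPM or higher in the other lines. KRT20 was at 0.604 to 2.89 CPM in HCT116 and overlapped with LS174T at 0.658 to 15.2 CPM.

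The transcription factors of this program did not all stand at their lowest in HCT116. CDX2 was at 17.9, 20.2 and 24.2 CPM in HCT116, above the 0.964 to 7.72 CPM of HT29 and below the 145 to 254 CPM of LS513 and the 73.8 to 137 CPM of LS174T. CDX1 had 1 count over the HCT116 libraries and was at 0.275 to 3.50 CPM in HT29, 326 to 413 CPM in LS513 and 100 to 192 CPM in LS174T. HNF4A was at 1.12, 1.88 and 2.24 CPM in HCT116 and at 76.2 CPM or higher in all other libraries, a log2 difference of -6.64 (standard error 0.13, adjusted p = 3.7e-24). FOXA2 had no count in HCT116. Of the 27 tested members of the list of intestinal transcription factors, 12 were called lower in HCT116 than in each other line (background 7.24%) and 1, NR5A2, higher (background 10.3%). The list's median log2 difference was -1.98, against 0.04 over all genes tested.

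The gene lists for absorptive and for goblet cells went the same way. Of 32 tested absorptive and brush border genes, 21 were called lower in HCT116 than in each other line (background 7.24%) and 1 higher, CA2, a carbonic anhydrase, which was at 45.2, 71.6 and 86.5 CPM in HCT116 and at most at 12.5 CPM elsewhere. The median of the list was -7.39, or -5.50 with line means held at the floor of 3 counts. FABP1, a fatty acid carrier, had no count in HCT116 but reached only 0 to 1.07 CPM in HT29, and CEACAM6 was at 17.3 CPM or higher in all other libraries and had at most 2 counts per HCT116 library. Of 27 tested goblet and secretory genes, 14 were called lower (background 7.24%) and 2 higher (background 10.3%), MUC4, a membrane mucin, and TPH1, which makes serotonin, with a median of -7.48, or -4.21 with the floor. MUC5AC, a secreted gel-forming mucin, had no count in HCT116 and was at 4.36 to 5.81 CPM in HT29, 71.3 to 139 CPM in LS513 and 56.9 to 162 CPM in LS174T. TFF3, a trefoil factor of goblet cells, and MUC13, a membrane mucin, were at 0.514 CPM and 19.2 CPM or higher in the other lines and at most at 0.0654 CPM in HCT116. MUC4 went the other way, at 4.47, 6.51 and 7.13 CPM in HCT116 and at most at 0.363 CPM elsewhere.

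**Figure D4:**
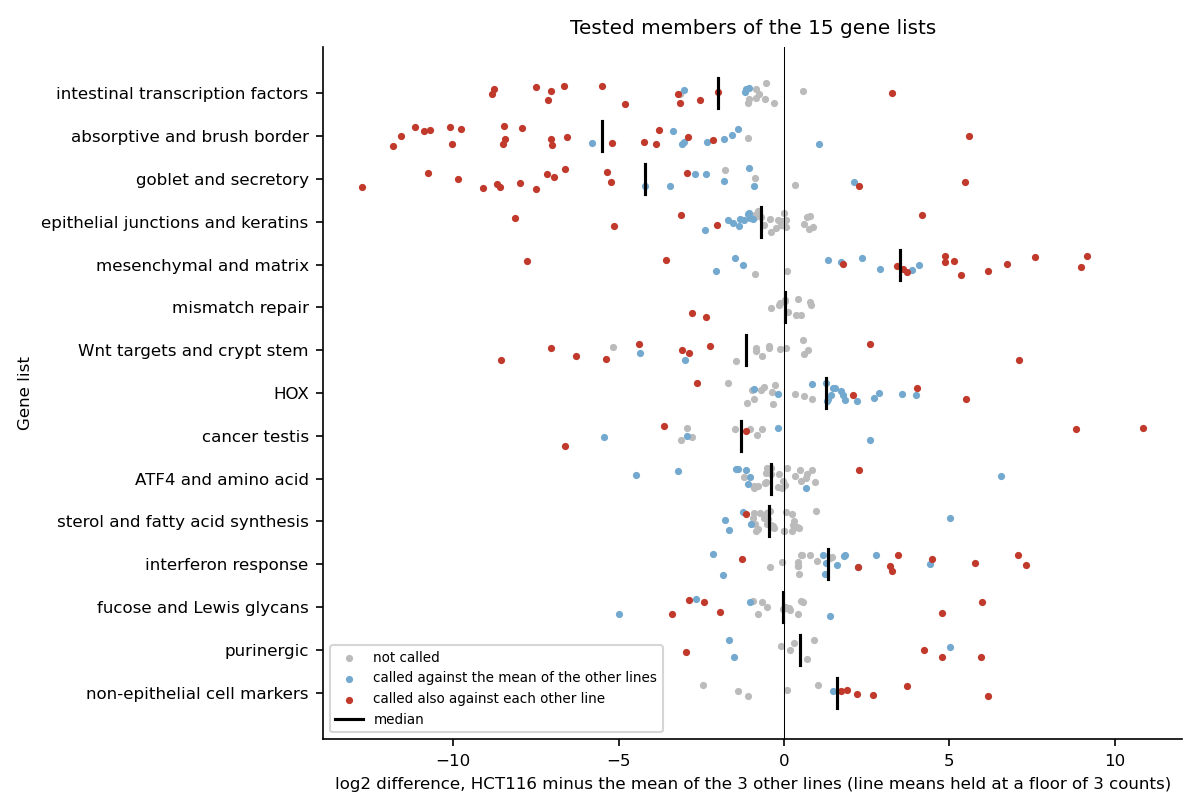
Each point is a tested member of 1 of 15 gene lists (y axis), placed by its log2 difference, HCT116 minus the mean of the 3 other lines, computed from line means held at a floor of 3 counts per library (x axis), with black bars at the medians. The medians lay between -5.50 for absorptive and brush border genes and 3.50 for mesenchymal and matrix genes.

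Mesenchymal and matrix genes had the highest list median, at 3.82, or 3.50 with the floor. Of 26 tested, 13 were called higher in HCT116 than in each other line (background 10.3%) and 2 lower. CAV1, the scaffold of caveolae, was at 359, 399 and 477 CPM in HCT116, 1.45 to 28.0 CPM in HT29 and under 1 CPM in LS513 and LS174T. FSTL1, a secreted glycoprotein, was at 21.6, 28.98 and 31.4 CPM in HCT116 and at most at 0.307 CPM elsewhere, a log2 difference of 7.85 (standard error 0.15, adjusted p = 1.1e-24). The transcription factor ZEB1 and the intermediate filament VIM were higher in HCT116 than in every other library but low in all lines, at 0.706 to 2.90 CPM and 0.785 to 2.66 CPM. A further 13 genes of the list, such as ZEB2, CDH2 and COL3A1, did not pass the filter on low counts. That filter keeps genes expressed in HCT116 alone, such as TWIST1, so the called share and the median can be raised by it. The 2 genes called lower were TGFBI and TNC, both secreted matrix proteins, of which TGFBI was at most at 0.499 CPM in HCT116 and at 582 to 741 CPM in LS513.

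Markers of cells other than epithelium were given as a check on the cultures. Of 23 such markers, 11 were too low to be tested, among them PTPRC, CD3E and CDH5, and 6 of the 12 tested were called higher in HCT116 than in each other line (background 10.3%). COL1A1, a fibroblast collagen, was at 9.89, 14.6 and 21.8 CPM in HCT116 and at most at 1.10 CPM elsewhere, and DES, the muscle filament desmin, at 0.776 to 2.77 CPM. KDR, SNAP25, VWF and MYH11 did not exceed 0.949 CPM in any HCT116 library. Outside HCT116, KDR had no count and SNAP25 was at most at 0.03465 CPM. Both passed the filter on low counts through HCT116 alone, so the share of tested markers called higher can be raised by that filter. COL1A1 is also in the list of mesenchymal and matrix genes. Summed over the 23 markers, HCT116 libraries held 27.7 to 78.5 CPM, HT29 13.7 to 35.6 CPM, LS513 22.6 to 100.2 CPM and LS174T 4.38 to 11.3 CPM, so HCT116 overlapped with HT29 and LS513. In HCT116, 6 of the 23 markers had no count in any library, among them PTPRC and CD3E. The part of other cells in these levels was not tested.

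MSH3, a gene of DNA mismatch repair that recognizes small loops, was at 2.94, 3.48 and 4.29 CPM in HCT116 and had medians of 28.6, 17.7 and 11.9 CPM in HT29, LS513 and LS174T, a log2 difference of -2.35 (standard error 0.09, adjusted p = 2.0e-18). Its RNA was thus present in each HCT116 library, at a lower level than in all 18 others.

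Wnt target and crypt stem cell genes were called lower than in each other line in 8 of 24 tested members (background 7.24%) and higher in 2, a share no larger than the background of 10.3%. LGR5, the R-spondin receptor that marks crypt stem cells, had 3 counts over all HCT116 libraries and was at 2.27 to 33.9 CPM elsewhere. ASCL2, a stem cell transcription factor, had 1 count in HCT116 and was at 1.10 to 5.31 CPM in HT29 but at 102 CPM or higher in LS513 and LS174T. PROX1 had no count in HCT116, and TDGF1 had none either but was also at 0 in 1 HT29 library and at most at 0.513 CPM in the other 5. The members that were higher, DKK1 and NOTUM, are secreted inhibitors of Wnt signaling. DKK1 was at 285, 366 and 444 CPM in HCT116, 3.02 to 32.0 CPM in HT29, at most 0.0644 CPM in LS513 and 11.5 to 17.7 CPM in LS174T.

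HOX genes, which encode positional identity along the body axis, were called higher in HCT116 than the mean of the others in 19 of 33 tested members (background 20.1%), but higher than each other line in 3, a share no larger than the background of 10.3%, with a median of 1.43. HOXB13 was at 12.02, 14.8 and 17.8 CPM in HCT116 and at most at 7.51 CPM elsewhere, a log2 difference of 2.13 (standard error 0.155, adjusted p = 2.3e-12). HOXC9 and HOXC10 were at 5.89 to 8.28 CPM and 2.05 to 3.05 CPM in HCT116 and at most at 0.654 CPM in the other lines. HOXA13 went down, from 18.6 CPM or higher elsewhere to 3.07, 5.95 and 8.70 CPM in HCT116. Of 16 tested cancer testis genes, 2 were higher than in each other line, MAGEB2 and PRAME, a share near the background of 10.3%, and 3 were lower (background 7.24%). MAGEA12 was at 32.9 CPM or higher in HT29 and LS174T, 0.242 to 0.450 CPM in LS513 and at most at 0.1003 CPM in HCT116. PAGE1 was at 119 to 232 CPM in LS174T and at most at 0.172 CPM in any other library, so its HCT116 libraries overlapped with those of HT29 and LS513 near the floor.

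Of 32 interferon response genes, 8 were called higher in HCT116 than in each other line (background 10.3%) and 1, OAS1, lower (background 7.24%), with a list median of 1.19. In all 8 genes called higher every HCT116 3D library was above the 18 others, whereas in 7 of them at least 1 HCT116 2D library was not. The exception was IFIT5, at 28.7 CPM or higher in HCT116 against at most 16.7 CPM elsewhere. IFI6 was at 8.31, 7.42 and 9.75 CPM in the HCT116 2D libraries and at 371, 303 and 208 CPM in the 3D libraries, and at most at 12.9 CPM elsewhere. IFIT1, which binds viral RNA, was at 3.62, 5.32 and 6.48 CPM in 2D and 149, 144 and 102 CPM in 3D, against 3.23 to 10.1 CPM in HT29. Within 2D, IFI6 in HCT116 was above every HT29 library, which lay at 0.877 to 1.76 CPM, and it was below the HT29 3D libraries at 10.4 to 12.9 CPM. IFIT1 overlapped in 2D as well, where HT29 lay at 3.23 to 4.25 CPM. IFIT3 lay at 4.62 to 5.26 CPM in HCT116 2D, within the 3.54 to 11.3 CPM of HT29, and IFI44 at 0.518 to 1.03 CPM, below the 1.20 to 3.20 CPM of HT29, and both were above all other lines in 3D. With 2D libraries alone, the log2 difference from the mean of the other lines was 3.70 for IFI6 and 4.23 for IFIT1. Over both growths it was 6.31 and 7.20. IFIT1 was at most at 0.237 CPM in the 2D libraries of LS513 and LS174T, near the floor. Its difference from the mean is therefore no measure of its size.

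Other lists held few members called against each other line. Of 35 genes of epithelial junctions and keratins, 4 were lower in HCT116 than in each other line (background 7.24%), among them CLDN1, CLDN2 and CLDN3, and 1 was higher (background 10.3%), CDH3, the P-cadherin, at 206, 274 and 403 CPM against at most 90.5 CPM elsewhere. Against the mean of the other lines, 14 of these 35 genes were called lower (background 15.9%) and 1 higher (background 20.1%). The median log2 difference of this list was -0.68. CLDN1 was at most at 0.160 CPM in HCT116 and at 3.59 CPM or higher in the other lines, and CLDN2 was at 1.46 to 2.54 CPM against 12.6 CPM or higher. Of 33 genes of the ATF4 and amino acid response, 1 was higher, ALDH1L2, at 0.706 to 0.936 CPM, and none was lower. Of 32 genes of sterol and fatty acid synthesis, 1 was lower, SREBF2, the transcription factor of cholesterol synthesis, with a log2 difference of -1.21 (standard error 0.10, adjusted p = 4.6e-11). The medians of these last lists were -0.39 and -0.44, and both held fewer calls against each line than the background of 10.3% and 7.24%.

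For fucose and Lewis glycans, 4 of 23 tested genes were called lower than in each other line (background 7.24%) and 2 higher, a share no larger than the background of 10.3%, with a median of -0.03. GMDS, an enzyme on the route from GDP-mannose to the fucose donor GDP-fucose, was at 14.1, 18.2 and 20.4 CPM in HCT116, 55.7 to 75.6 CPM in HT29, 94.3 to 110 CPM in LS513 and 121 to 146 CPM in LS174T, a log2 difference of -2.42 (standard error 0.08, adjusted p = 1.1e-19). FUT4 was at 6.08 to 9.29 CPM against 41.2 CPM or higher elsewhere. FUT7, which shares 27.6% of its exonic bases, had 1 count in HCT116 but was also at 0 in 2 LS513 libraries. The sialyltransferase ST6GAL1 was higher, at 15.8, 19.8 and 22.3 CPM against at most 1.26 CPM, and ST3GAL6 was at 3.95 to 6.10 CPM against at most 0.980 CPM.

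Purinergic genes were the study's subject, and 12 of 22 could be tested. P2RX7, the ATP-gated channel, was found only in HCT116 by the level rule, at 1.33, 1.92 and 2.36 CPM against at most 0.0688 CPM elsewhere. The adenosine receptor ADORA1 was at 5.51, 5.82 and 8.12 CPM in HCT116 and at most at 0.114 CPM elsewhere, and ADORA2A was at 4.61, 5.46 and 6.83 CPM against at most 0.573 CPM, although 56.8% of its exonic bases are shared with another gene. These 3 were the genes called higher than in each other line (background 10.3%). P2RX7 and ADORA1 passed the filter on low counts through HCT116 alone, so this share can be raised by that filter. P2RX6, at most at 0.399 CPM in HCT116, was the only one called lower, although it overlapped with LS174T at 0.154 to 0.438 CPM. P2RX5 was at 15.1, 16.2 and 17.5 CPM in HCT116 and near 0 in HT29 and LS513, but at 10.5 to 14.2 CPM in LS174T, and 41.6% of its exonic bases are shared.

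Growth in 3D moved a part of the genes found only in HCT116. Within HCT116, 5637 of the genes tested (29.1%) differed between 3D and 2D at an adjusted p under 0.05 (edgeR, 8 groups; 3747 without HCT116 2D replicate 1), and among genes of at least 1 CPM in every HCT116 library the share was 35.6%. Of the 193 genes found only in HCT116, 33 rose in 3D and 9 fell, together 21.8% of them, with a median log2 change of 0.05. Among all genes of at least 1 CPM in every HCT116 library, 18.8% were higher in 3D and 16.9% lower. The 21.8% thus lay below the 35.6% of that background. The lowest HCT116 library of the 193 genes had a median of 3.88 CPM, and that background shares only the limit of 1 CPM. As the 2 shares are not matched for level, the lower one is not read as a weaker response. The largest changes, chosen after the values were seen, were those of LINC01835, a noncoding gene, which rose from 3.39 to 15.9 CPM (means of 3 libraries), and LY6K, a surface protein of the Ly6 family, which rose from 1.94 to 7.31 CPM. FGF2, a fibroblast growth factor, fell from 21.67 to 10.99 CPM, and OSBPL6, an oxysterol-binding protein, from 19.4 to 10.5 CPM. For both pairs the 3 libraries of each growth did not overlap. Of the 12 leading genes, BEX3 and OSMR rose and GJC1 fell in 3D. None of the 110 genes silent only in HCT116 changed with growth there, at levels too low to show a change.

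**Figure D5:**
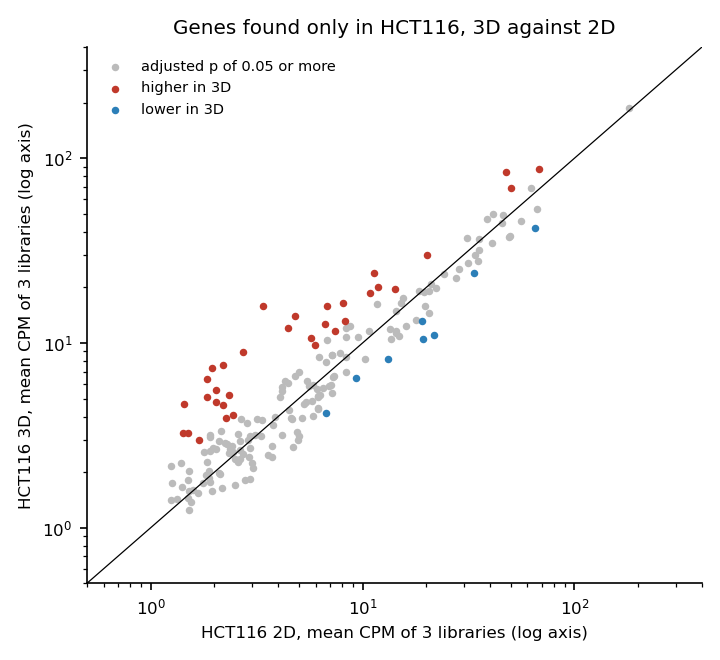
Mean CPM of the 3 HCT116 2D libraries (x axis, log) against that of the 3 HCT116 3D libraries (y axis, log) for the 193 genes found only in HCT116, with the line of equality. The 33 genes that rose in 3D (red) include LINC01835 at 3.39 and 15.9 CPM, and 9 genes fell (blue).

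The growth response of HCT116 differed from the mean response of the other lines in 877 genes (4.52%) at an adjusted p under 0.05, a count that fell to 514 with a replicate block and to 527 without HCT116 3D replicate 2. No gene found only or silent only in HCT116 was among them, with edgeR or with DESeq2, and 2 and 1 of these genes had an unadjusted p under 0.05 with edgeR. As these genes were at or near 0 on 1 side, their response could not be compared between lines.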

How the data were processed

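RNA sequencing was done on 24 libraries of 4 CRC cell lines. The authors trimmed reads with Trim Galore 0.4.1, aligned them with STAR to the Ensembl 91 genome, removed reads that aligned more than once, and counted reads on exons with HTSeq-count 0.5.3. The deposited values are unnormalized read counts, in a file of its own for every technical replicate. The submitters' processing notes name hg19, but 57980 of the 58243 gene identifiers matched GENCODE 29 (GRCh38), from which coordinates were taken. Any overlap of a read with an exon was counted, so genes with common exons share reads, and the strand option of the counting is not given in the sources used here. There were 8 technical replicates per library, summed, and 7 for 1 HT29 3D library (1 was not analysed here). They differed by no more than counting error (median chi-square per degree of freedom 0.905 to 0.934).

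Genes were filtered with filterByExpr, scaled with TMM and fitted with edgeR 4.0.16 (quasi-likelihood, robust, R 4.3.3) with a term per line and growth as covariate. The contrast was HCT116 minus the mean of the 3 other lines, and each line in turn. Growth effects came from a fit of 8 groups. Standard errors are on the log2 scale, and p-values were adjusted over all genes tested. DESeq2 1.42.0 and limma 3.58.1 were alternatives. On simulated counts for 18229 genes, recovery was scored at an adjusted p under 0.05 without the size limit. The test of HCT116 against the mean recovered 86 of 100 genes changed 2-fold and 94 of 100 changed 4-fold, with 9 false calls. The simulated lines differed only in the changed genes, so differences among the other lines are not covered.

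Genes were named by rank: 12 protein-coding and 2 noncoding genes per level set, 8 per direction outside both level sets (all of their genes, not only those named, were left out here), up to 4 called members of each of 15 gene lists, a fixed set of markers, and genes next to the thresholds, plus all divergent neighbours within 100 kb. Genes of a list that were counted as called against each line, or too low to test, were also named. A few genes are not reported here. The members and lists were chosen with earlier results of these data known. Floors and intervals cover counting error only.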

Additional observations from a re-analysis of the deposited data

Results flagged for a closer look

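For 7 of the 106 named genes the response to growth in 3D differed between HCT116 and the mean of the other lines (background 4.52%). This was a test of the difference itself (edgeR, adjusted over all genes tested). The difference in log2 response was 4.82 for IFIT1 (adjusted p = 0.00026) and 4.02 for IFI6 (adjusted p = 2.1e-09), both rising more in HCT116. It was 1.24 for CLDN3 (adjusted p = 0.0012), 0.66 for CDH3 (adjusted p = 0.0092) and 0.58 for SREBF2 (adjusted p = 0.011). ST6GAL1 differed by 1.19 (adjusted p = 0.018), with a change within HCT116 of -0.06 that did not pass (adjusted p = 0.85). CDX2 differed by -1.04 (adjusted p = 6.2e-05), with a change within HCT116 of 0.17 that did not pass either (adjusted p = 0.31). IFIT1 was at most at 0.0634 CPM in LS513 and ST6GAL1 at most at 0.178 CPM in LS174T. These levels are near the floor, so the differences of IFIT1 and ST6GAL1 are no measure of their size. No explanation was tested for these values. The groups of the study hold 3 libraries each, so single libraries were not tested as outliers.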

How the results depend on the processing

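The alternatives moved the counts as follows. With all genes of at least 1 count, 6173 genes were higher in HCT116. With lines as replicates 0 were higher and 0 lower (limma, adjusted p), where edgeR over libraries gave 3902 and 3076. At an unadjusted p under 0.05 and the same size limit, limma gave 1335 and 837 and edgeR 3908 and 3087. Without a log2 cutoff, 7852 were higher, 6613 lower, 3855 higher than each line and 3139 lower than each, and with a cutoff of 2 these counts were 2555, 1609, 1257 and 787. Without HT29, 2248 genes were lower than each line. With the other lines as 1 group the split was 2606 higher and 3889 lower. At 5 CPM, 77 genes were found only and 51 silent only in HCT116. With 0 counts on the silent side these were 48 and 30, and with 10 counts 336 were found only there.

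With each library left out in turn, genes higher ran from 3916 to 4088, lower from 3101 to 3307, higher than each line from 1982 to 2100, lower than each from 1402 to 1527, found only from 193 to 202 and silent only from 110 to 117. The filter on low counts was applied anew each time with 1 group smaller, so the genes tested can differ. The counts over all libraries, 3902 higher and 3076 lower, lie below their ranges. The growth effect within HCT116 ran from 3747 to 6836 genes, the lowest without HCT116 2D replicate 1, and the differing growth response from 527 to 1167, the lowest without HCT116 3D replicate 2.

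Same-numbered libraries of HCT116 and another line correlated between -0.387 and 0.475 (median 0.03, over 0.1 in 6 of 17 pairs). For libraries of other numbers the median was 0.05, with 15 of 37 pairs over 0.1. The correlations thus give no sign that the numbers pair the samples, but they cannot show that same-numbered libraries were handled apart. With a replicate block, 3899 genes were higher, 3034 lower, and 514 rather than 877 differed in their growth response.

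The CDX2 log2 difference from the mean reversed without LS513 (0.125), and the CDH1 log2 difference from the mean without LS174T (-0.059) and with the other lines as 1 group (-0.591). With a replicate block, DESeq2 or its size factors, all 106 named genes kept their direction and their side of the threshold, and with lines as replicates none of the 106 passed (limma). The cause of these changes was not tested. Lines as replicates and other lines as 1 group give no contrast with each line. Counting by loci and the floor on line means were chosen after seeing the data.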
